A study of Rattus norvegicus with 6 samples.

Results

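The 9 rat genes described here encode enzymes that make or remove the P450 products of arachidonic acid: Cyp4a1, Cyp4a2, Cyp4a3, Cyp4a8, Cyp4f1, Cyp4f4, Cyp2c23, Cyp2j4 and Ephx2. They were chosen by name, and they are 9 of the 15645 named genes on the array. They were read by 15 of its 61537 non-control probes, and all 15 passed the filter for testing. The samples were renal cortex from 6 male Sprague-Dawley (Crl:CD(SD)) rats that were 5 weeks old when purchased. In the treated group, 3 rats received 250 mg/kg/day of sulfone bis(p-chlorophenyl), which is a diaryl sulfone with chlorine on each ring, over 4 weeks. In the vehicle group, 3 rats received corn oil over the same 4 weeks. All 6 were fed a basal diet, and each RNA was hybridised with Cy3 to its own 1-colour Agilent array. The labels do not say how the compound was given, and the cortex was measured as whole tissue.

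In the kidney, arachidonic acid freed from membranes can be oxidised by microsomal P450 enzymes along a pair of routes. Enzymes of the Cyp4a and Cyp4f families hydroxylate the end of the fatty acid chain, which gives a hydroxy acid that constricts renal vessels and acts on tubular sodium transport. Enzymes such as Cyp2c23 and Cyp2j4 are epoxygenases, whose epoxides dilate vessels and lower sodium reabsorption. The soluble epoxide hydrolase encoded by Ephx2 turns these epoxides into less active diols. Cyp4a genes are textbook targets of the fatty acid receptor PPAR alpha in rat liver, and several of them are abundant in the proximal tubule of the rat.

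Signal is given on a log2 scale after dividing by each array's own 75th percentile. On each array 66.1% to 68.2% of probes were well above background, and that percentile was 910.3 to 1101. Treated 1 and the 3 vehicle arrays lay on 1 slide and were scanned together, whereas treated 2 and treated 3 lay on a slide that held no vehicle array. With slide as a block, the difference is therefore treated 1 against the vehicle arrays. Markers of the proximal tubule were well above background on all 6 arrays for 9 of 9 genes of segments S1 and S2 and for 9 of 9 of the straight segment S3. Markers of hepatocytes were also detected: 15 of 17 were tested, and all 15 were well above background on every array. Treated 1, treated 2 and treated 3 had medians of -0.56, 0.08 and 1.38 over these 15 genes, as deviations from each gene's mean over the arrays. In vehicle 1, vehicle 2 and vehicle 3 the medians were 0.34, -0.16 and -0.87.

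The upstream sequences of the Cyp4a genes are shown because the 4 genes lie in 1 cluster on chromosome 5 (RefSeq, GRCr8) while their values differed between arrays. Windows of the 250 bases before the annotated start were found in the RefSeq table for 6 of the 9 genes. Those of Cyp4a2 (chr5:134170909-134171158), Cyp4a3 (chr5:134352237-134352486) and Cyp4a8 (chr5:133970227-133970476) are on the minus strand of GRCr8. They are printed 5′ to 3′, with the nuclear receptor core motif AGGTCA in capitals.
Cyp4a2: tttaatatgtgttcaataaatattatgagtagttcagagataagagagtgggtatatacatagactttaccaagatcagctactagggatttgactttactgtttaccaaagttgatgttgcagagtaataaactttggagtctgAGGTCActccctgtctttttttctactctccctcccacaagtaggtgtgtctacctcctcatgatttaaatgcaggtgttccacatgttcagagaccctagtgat
Cyp4a3: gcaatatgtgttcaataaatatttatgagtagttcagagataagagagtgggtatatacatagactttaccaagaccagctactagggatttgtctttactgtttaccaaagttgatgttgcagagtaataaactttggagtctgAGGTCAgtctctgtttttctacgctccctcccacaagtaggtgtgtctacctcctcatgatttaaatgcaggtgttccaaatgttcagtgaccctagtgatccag
Cyp4a8: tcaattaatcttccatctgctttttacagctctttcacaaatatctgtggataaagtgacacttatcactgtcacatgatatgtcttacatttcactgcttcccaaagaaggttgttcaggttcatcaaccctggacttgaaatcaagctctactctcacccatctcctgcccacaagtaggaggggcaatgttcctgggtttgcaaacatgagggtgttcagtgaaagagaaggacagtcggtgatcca
The Cyp4a2 and Cyp4a3 windows were identical at 236 of 245 aligned bases, or 96.3%, and each held this motif once, at the same distance from the start (-105 to -100). The Cyp4a8 window was identical to that of Cyp4a2 at 60.3% of aligned bases and held it 0 times. The motifs AGGTCA, AGGTCANAGGTCA (a direct repeat with 1 base between), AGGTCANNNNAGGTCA (a direct repeat with 4 bases between) and TGACNNNGC (the core of the antioxidant response element) were searched on both strands. A repeat contains the core motif, so these motifs overlap. AGGTCA was found in 14.1% of 33469 RefSeq windows of this length, AGGTCANAGGTCA in 0.0508%, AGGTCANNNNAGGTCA in 0.00299% and TGACNNNGC in 10.1%. Of the 6 windows, those of Cyp4a2 and Cyp4a3 held AGGTCA, and the other 3 motifs were found in 0. A match describes the letters in the window and is not a measured binding site.

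Across the 9 genes, each read by its brightest probe, every log2 fold change of treated over vehicle was above 0, with a median of 0.24 and a range of 0.01 to 2.63. The median over all 12118 tested genes was -0.01. None of the 9 passed an adjusted p of 0.05 (limma, Benjamini-Hochberg over 40643 probes), a threshold passed by 0.0165% of all tested genes. An unadjusted p under 0.05 was found for 3 of 9, namely Ephx2, Cyp2j4 and Cyp4f1, all with higher means in treated cortex. Over all tested genes 21.4% had such a p, 10.1% with the treated mean higher and 11.3% with it lower. Groups did not overlap for 2 of 9, Cyp2j4 and Cyp4f1, against a background of 13.9% of genes with all treated arrays higher. Without treated 3 the count with an unadjusted p under 0.05 was 0, and without vehicle 1 or vehicle 2 it was 1. It was 1 (Cyp2j4) with slide as a block, where the median over the 9 genes was 0.010. For treated 2 and treated 3, slide and treatment cannot be told apart.

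**Figure D1:**
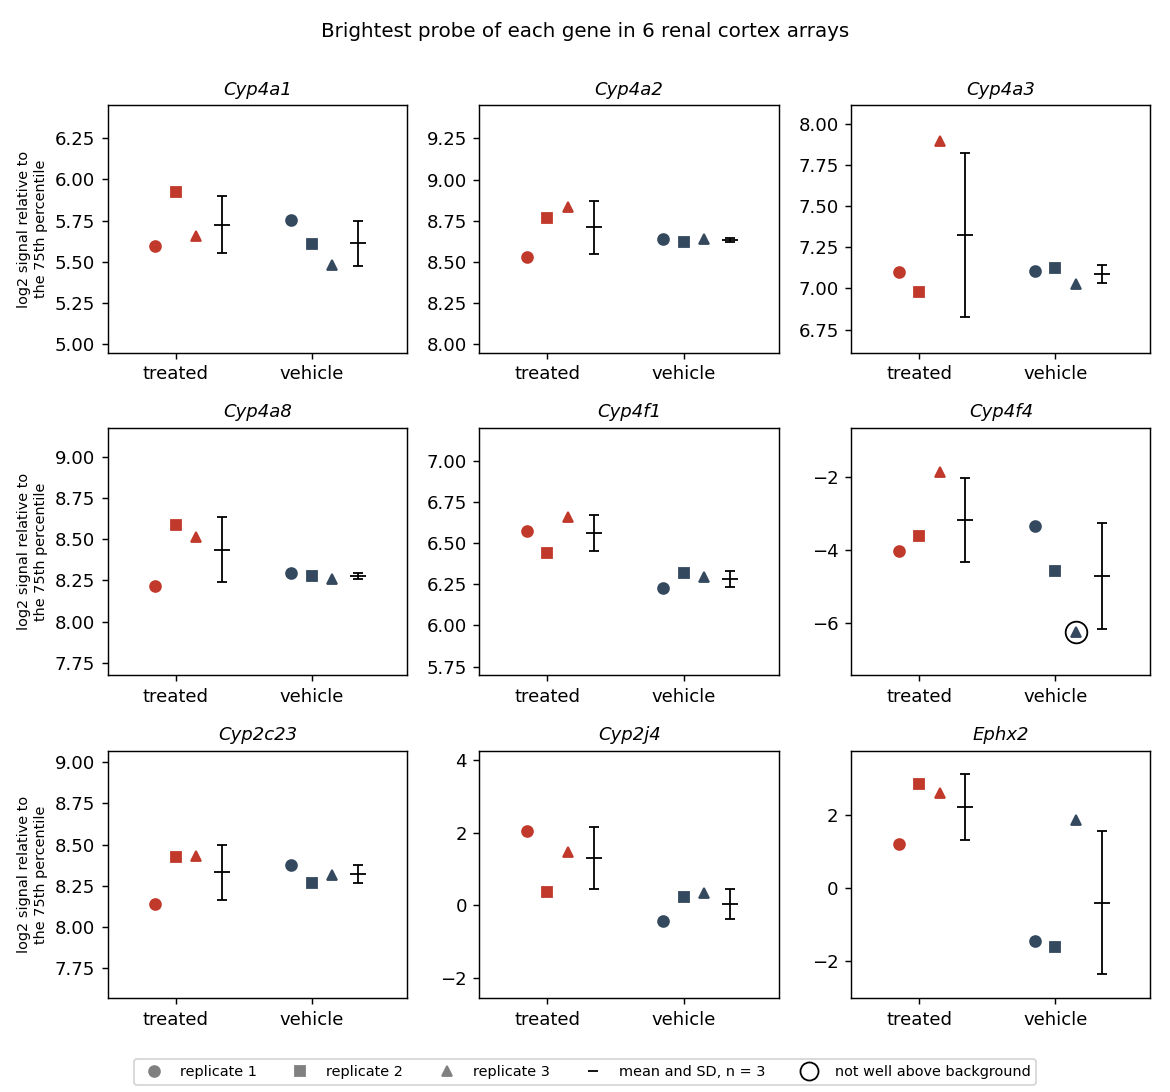
Log2 processed signal relative to the array's 75th percentile for the brightest probe of each of the 9 genes, treated arrays left of vehicle arrays. Each marker is 1 array and the bars are mean and SD (n = 3), panels differ in the span of their axes, and the ringed Cyp4f4 value in vehicle 3 was not well above background. The groups lie apart for Cyp4f1 and Cyp2j4, and vehicle 3 lies above treated 1 for Ephx2.

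Among the omega-hydroxylases of the Cyp4a family, the brightest probes of all 4 genes had differences whose 95% intervals include 0. Cyp4a1, which hydroxylates fatty acids and is best known from rat liver, had 5.60, 5.92 and 5.66 in treated cortex against 5.75, 5.61 and 5.48 in vehicle cortex. The groups overlapped, since vehicle 1 lay above treated 1 and treated 3. The log2 fold change was 0.11 (95% interval -0.19 to 0.41, limma adjusted p = 0.62), and the other probe of the gene gave -0.01 (-0.31 to 0.29, limma adjusted p = 0.97). In bulk tissue, a change in the number of cells of a type and a change in RNA per cell (fewer cells or less RNA in each) cannot be told apart.

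Cyp4a2, an arachidonic acid omega-hydroxylase of the rat kidney, had 8.53, 8.77 and 8.83 in treated arrays and 8.64, 8.62 and 8.64 in vehicle arrays by its brightest probe. Treated 1 lay below all 3 vehicle arrays, and treated 2 and treated 3 lay above them. Their log2 difference was 0.08 (95% interval -0.16 to 0.32, limma adjusted p = 0.68), but -0.10 with slide as a block. The other probe gave 7.05, 7.44 and 7.41 in treated arrays and 7.10, 7.08 and 7.08 in vehicle arrays. It had the same order of treated 1 against the vehicle arrays on this scale. On its unscaled signal every treated array (145836, 158026 and 155776) lay above every vehicle array (139085, 140846 and 139985). The order of treated 1 thus depended on the scaling. The log2 difference of this probe was 0.21 (limma adjusted p = 0.36, SE 0.12). This value depended on treated 1: without it the difference was 0.34 (limma adjusted p = 0.037), and with array weights it was 0.31 (limma adjusted p = 0.0498). In these fits 1469 and 2317 of 40643 probes passed an adjusted p of 0.05 with treated higher, against 1 in the main fit. Without treated 1, no treated array shared a slide with a vehicle array, so slide and treatment cannot be told apart. With slide as a block, the difference for this probe was -0.039.

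Cyp4a3, whose product also forms the hydroxylated acid, was read by 1 probe. Its values were 7.10, 6.98 and 7.89 in treated cortex and 7.11, 7.13 and 7.03 in vehicle cortex. Treated 3 stood above the other 5 arrays, treated 1 lay within the vehicle range and treated 2 lay just below it. The difference of 0.24 (limma adjusted p = 0.60, SE 0.24) became -0.05 without treated 3. The upstream windows of Cyp4a2 and Cyp4a3 were closely alike, as shown above, and signal shared between probes for such paralogs was not tested.

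Cyp4a8 was read by 3 probes, and they gave different sizes of difference. The brightest probe (A_42_P735495) had 8.21, 8.58 and 8.51 in treated arrays and 8.30, 8.27 and 8.26 in vehicle arrays, and treated 1 was below every vehicle array. On the unscaled signal every treated array (326736, 349420 and 335277) lay above every vehicle array (317876, 322470 and 316538), so this order depended on the scaling. Its log2 fold change was 0.16 (SE 0.11, limma adjusted p = 0.45). The dimmest probe (A_64_P040989) had 4.96, 5.04 and 5.11 in treated arrays and 4.21, 4.37 and 4.33 in vehicle arrays. Here the groups did not overlap, and the gap between them was wider than the spread within either. Its log2 fold change was 0.73 (SE 0.08, 95% interval 0.53 to 0.94), a 1.66-fold difference that had an unadjusted p of 0.00012 and a limma adjusted p of 0.064. The remaining probe (A_64_P040994) had a difference between these sizes, with 6.35, 6.26 and 6.23 in treated arrays and 5.82, 5.998 and 6.04 in vehicle arrays. Its groups did not overlap either, and its log2 fold change was 0.33 (SE 0.09, limma adjusted p = 0.15).

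The dimmest Cyp4a8 probe passed an adjusted p of 0.05 under 4 alternatives: normexp correction (0.77, limma adjusted p = 0.033), trend and robust variances (0.73, limma adjusted p = 0.025), array weights (0.72, limma adjusted p = 0.021) and without treated 1 (0.77, limma adjusted p = 0.015). In those fits 97, 109, 2317 and 1469 of 40643 probes passed with treated higher, against 1 in the main fit. Without treated 1, slide and treatment cannot be told apart. The slide-blocked value of the dimmest probe was 0.65. The 2 probes were chosen for their unlike differences, so their values within each array are a description. The dimmest minus the brightest probe was -3.25, -3.55 and -3.40 in treated arrays and -4.09, -3.90 and -3.92 in vehicle arrays, so every treated array was above every vehicle array. The means were -3.40 ± 0.15 in treated and -3.97 ± 0.10 in vehicle arrays (SD, n = 3 each). Which transcripts each probe binds was not tested.

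The brightest probes of Cyp4a2, Cyp4a8 and Cyp2c23 had processed signals above 300000 on every array. The highest signal of any non-control probe was 681505 to 717493, depending on the array. Processed signals of the Cyp4a2 probe were 407086, 396565 and 418515 in treated arrays and 403223, 410307 and 412661 in vehicle arrays, so the highest was 1.06 times the lowest. No spot was marked as saturated. Of all tested probes, 93 had a mean signal of at least 300000. Their median ratio of highest to lowest signal was 1.13, and 3.23% had an unadjusted p under 0.05. Among 25183 probes with a mean signal under 1000, the median ratio was 1.56 and 21.5% had such a p. Whether so high a signal limits the differences seen with these probes was not tested.

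Of the Cyp4f genes, whose products hydroxylate arachidonic acid and leukotrienes, Cyp4f1 had the narrower interval. Cyp4f1 had 6.57, 6.44 and 6.66 in treated cortex and 6.23, 6.32 and 6.30 in vehicle cortex. Every treated array was above every vehicle array. The means were 6.56 ± 0.11 in treated and 6.28 ± 0.05 in vehicle arrays (SD, n = 3 each), and the log2 fold change of 0.28 (SE 0.09) had an unadjusted p of 0.017 and a limma adjusted p of 0.17. It was 0.29 with slide as a block, and over 20 alternatives it lay between 0.22 and 0.35. On the unscaled signal, treated 2 (79072) lay below vehicle 2 (83136) and vehicle 3 (81225), so the separation of groups depended on the scaling to the 75th percentile, which was 910.3 in treated 2 and 1042 in vehicle 2.

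Cyp4f4 was read by a dim probe and varied among animals of both groups. Its values were -4.02, -3.62 and -1.85 in treated arrays and -3.33, -4.57 and -6.24 in vehicle arrays, the last of which was not well above background. The probe passed the filter for testing only through the treated group, where its mean was higher. Vehicle 1 lay above treated 1 and treated 2, so the groups overlapped. Treated over vehicle, the log2 fold change was 1.55 (SE 0.88, 95% interval -0.60 to 3.70, limma adjusted p = 0.36), or 1.34 with dim values set to the floor and 0.70 with slide as a block. It was 0.79 without vehicle 3, 0.89 without treated 3 and 0.85 with normexp correction, and leaving out any 1 array gave 0.79 to 2.24. The 3 genes with the most similar profile were Inhca, Hp (haptoglobin, a plasma protein made by the liver) and Cyp2c7 (a steroid-hydroxylating P450). Their mean absolute differences from the Cyp4f4 profile over the 6 arrays were 0.22, 0.22 and 0.25 on the log2 scale, where Cyp4f4 itself deviated from its mean by 1.00 on average, among 11670 genes searched. The hepatocyte marker medians given above were likewise highest in treated 3 and lowest in vehicle 3. Single markers differed: all 15 were highest in treated 3, but not all were lowest in vehicle 3. Apoc3 and Ambp were lowest in treated 1, Rbp4 in vehicle 2, and Fga and Cyp2c11 in vehicle 1, while the others were lowest in vehicle 3. Cps1 and Tat of the same list did not pass the filter for testing. The scaled signals of these 15 markers summed to 45.5 to 107.6 in treated and 32.2 to 60.4 in vehicle arrays. Their part in the Cyp4f4 values was not tested.

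**Figure D2:**
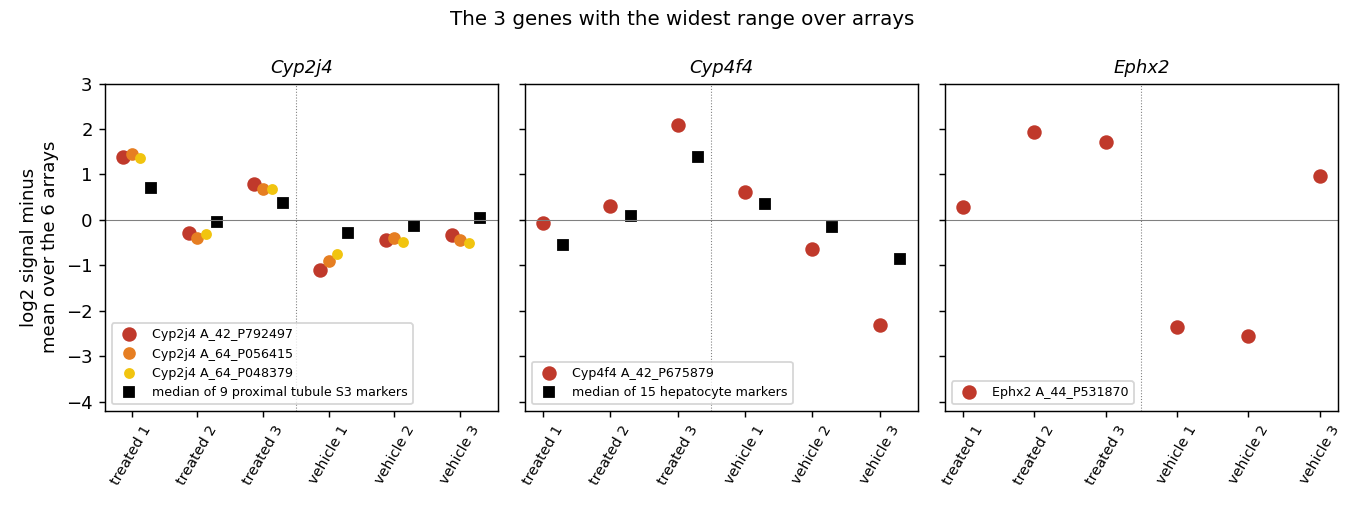
Deviations of log2 signal from the mean over the 6 arrays for the 3 genes with the widest range, by array. Circles are probes of the gene and squares are the median deviation of the marker list named in the panel. Cyp2j4 is highest in treated 1, Cyp4f4 in treated 3, and Ephx2 is lowest in vehicle 1 and vehicle 2.

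Cyp2c23, the main arachidonic acid epoxygenase of rat kidney, had nearly equal means in the groups. Its values were 8.14, 8.42 and 8.43 in treated cortex and 8.37, 8.26 and 8.32 in vehicle cortex. On this scale treated 1 was the lowest of the 6 arrays and the other treated arrays were the highest. On the unscaled signal the order differed: 310819, 312423 and 316976 in treated arrays all lay below 335717, 320388 and 329903 in vehicle arrays. The log2 fold change was 0.01 (SE 0.10, limma adjusted p = 0.95), and its 95% interval of -0.24 to 0.27 leaves room for changes up to that size. The value was -0.18 with slide as a block.

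Cyp2j4, an epoxygenase of the Cyp2j family that is found in rat kidney and intestine, had a higher mean in treated cortex by all 3 of its probes. The brightest probe had 2.05, 0.38 and 1.46 in treated arrays and -0.44, 0.22 and 0.34 in vehicle arrays. The groups did not overlap, although treated 2 lay only just above vehicle 3, and treated 1 and treated 3 stood apart from the rest. The means were 1.30 ± 0.85 in treated and 0.04 ± 0.42 in vehicle arrays (SD, n = 3 each). The log2 fold change was 1.25 (SE 0.45, 95% interval 0.15 to 2.36), with an unadjusted p of 0.032 and a limma adjusted p of 0.21. The other probes both gave 1.16, with limma adjusted p = 0.20 and 0.23. Groups did not overlap on the log2 scale, but for A_64_P056415 treated 2 (0.1926) and vehicle 2 (0.1918) were nearly equal. On its unscaled signal treated 2 (1040) lay below vehicle 2 (1190) and vehicle 3 (1142).

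The brightest Cyp2j4 probe gave 2.01 with slide as a block and, without each array in turn, 0.88 to 1.71. With array weights it was 0.71. On the unscaled signal, treated 2 (1182) lay below vehicle 2 (1217) and vehicle 3 (1311). The genes with the most similar profile were Ninj2, Gpd2 (a mitochondrial glycerol phosphate dehydrogenase) and Afm (afamin, a plasma protein), with mean absolute differences of 0.18, 0.19 and 0.21, where Cyp2j4 deviated by 0.72. The 9 S3 markers had median deviations of 0.69, -0.04 and 0.37 in treated arrays and -0.29, -0.14 and 0.04 in vehicle arrays, so their median too was highest in treated 1 and treated 3. Single markers differed: 7 of 9 had a log2 fold change above 0, and 2 were below. Cyp7b1 had -0.75 with all treated arrays lower, and Slc22a13 had -0.14. Slc7a13 was higher in vehicle 3 (6.26) than in treated 3 (6.13). The scaled signals of the 9 S3 markers summed to 365.7 to 560.2 in treated and 228.9 to 377.8 in vehicle arrays. Of 6 adipocyte markers 4 were tested, and all 4 were well above background on every array. Their median deviations were 0.91, 0.0052 and 0.33 in treated arrays and -0.41, -0.33 and -0.065 in vehicle arrays, which is also highest in treated 1 and treated 3. Their summed scaled signal was 2.17 to 2.62 in treated and 1.26 to 1.82 in vehicle arrays. Cidec, a lipid droplet protein of fat cells, had a log2 fold change of 1.86, whereas Adipoq (adiponectin), which defines these cells, had -0.08 and was lowest in treated 1 (-0.78). The part of either marker list in the Cyp2j4 values was not tested. The neighbouring family member Cyp2j3 had a log2 fold change of 0.05.

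Ephx2 had the largest mean difference of the 9 genes and the widest spread among vehicle animals. Its values were 1.21, 2.86 and 2.63 in treated cortex and -1.44, -1.63 and 1.88 in vehicle cortex. Vehicle 1 and vehicle 2 were low, whereas vehicle 3 lay above treated 1, so the groups overlapped. Processed signals were 2543, 6614 and 5681 in treated arrays and 373, 337 and 3811 in vehicle arrays, and the probe was well above background on all 6. Between the means, the log2 fold change was 2.63 (SE 1.02, 95% interval 0.13 to 5.13), with an unadjusted p of 0.042 and a limma adjusted p of 0.23. Without vehicle 3 it was 3.77 (limma adjusted p = 0.15), while the slide-blocked value was 1.60.

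The spread of Ephx2 over the 3 vehicle arrays was 3.51 on the log2 scale, against a median of 0.18 over all tested genes, and 43 of 12118 genes, or 0.355%, spread more widely. Over the treated arrays the spread was 1.65, against a median of 0.28. The genes with the most similar profile were Mogat2 (a monoacylglycerol acyltransferase), Krt19 (a keratin) and Nr1d1 (a circadian repressor), with mean absolute differences of 0.67, 0.74 and 0.80, where Ephx2 deviated by 1.64. These distances were larger than those of the nearest genes to Cyp4f4 and Cyp2j4. Over all 6 arrays, 0.446% of genes had a wider range than Ephx2, 0.462% had a wider range than Cyp4f4 and 2.21% had a wider range than Cyp2j4.

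Counted over probes, 14 of 15 had a log2 fold change above 0, and 7 of 15 had an unadjusted p under 0.05, all higher in treated cortex, against 8.37% of all tested probes. Groups did not overlap for 6 of 15, with the treated arrays higher, against 11.5% of probes. The 7 comprised 2 probes of Cyp4a8, 3 of Cyp2j4 and 1 each of Cyp4f1 and Ephx2, and probes of 1 gene are not independent. None of the 15 passed an adjusted p of 0.05, which 3 of 40643 probes (0.00738%) did.

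**Figure D3:**
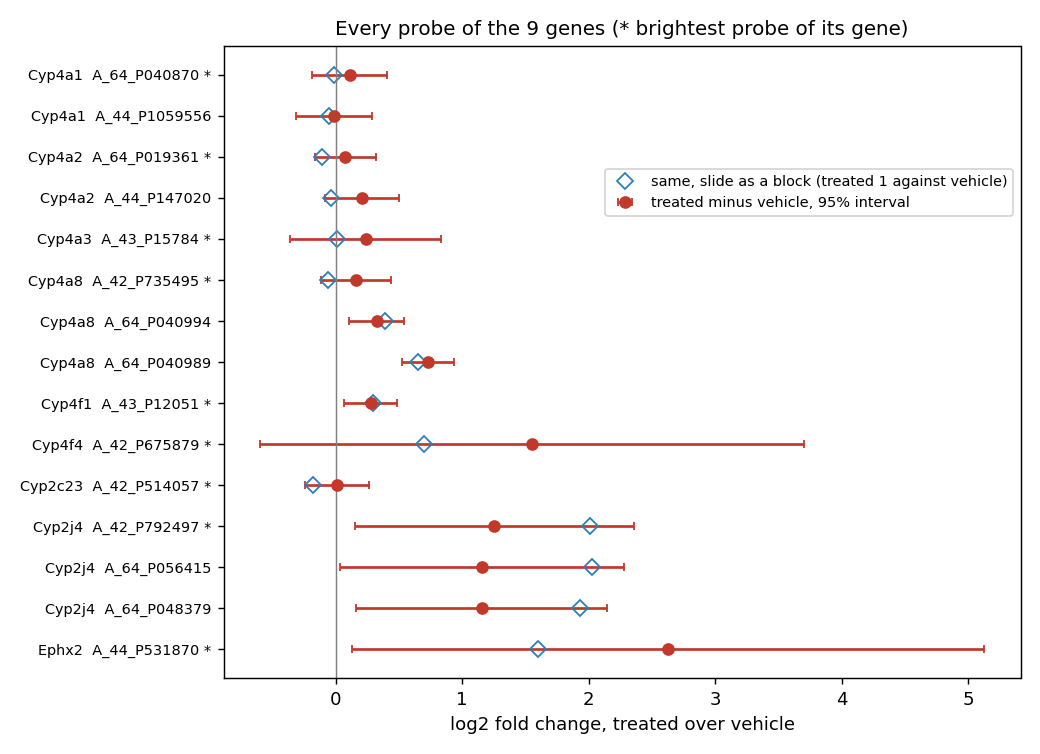
Log2 fold change of treated over vehicle for all 15 probes of the 9 genes, with 95% intervals from limma (filled circles) and the value with slide as a block, which is treated 1 against the vehicle arrays (open diamonds). Intervals of the 3 Cyp2j4 probes, the Ephx2 probe, the Cyp4f1 probe and 2 of the 3 Cyp4a8 probes lie above 0, and the diamonds of both Cyp4a2 probes, both Cyp4a1 probes, the brightest Cyp4a8 probe and Cyp2c23 lie below it.

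Genes around the 9 in the same pathway were counted from lists by name, and none of any list passed an adjusted p of 0.05. Microsomal P450s need an electron donor, and all 4 donors had an unadjusted p under 0.05 with treated cortex higher, against 10.1% of all tested genes. P450 oxidoreductase (Por) had 3.49, 4.10 and 4.42 in treated and 2.99, 2.93 and 2.86 in vehicle arrays, with no overlap. The difference of 1.08 on the log2 scale (limma adjusted p = 0.12, SE 0.23) was 0.57 with slide as a block. Cytochrome b5 (Cyb5a) and its reductase (Cyb5r3) had log2 fold changes of 0.45 and 0.39, with limma adjusted p = 0.13 and 0.11. These were 0.31 and 0.32 with slide as a block. All treated arrays were above all vehicle arrays for the 4 donors, as they were for 13.9% of all tested genes.

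Of 7 tested P450s of other fatty acid hydroxylation, 1 had an unadjusted p under 0.05 with treated higher and 1 with treated lower. Over all tested genes these shares were 10.1% and 11.3%. Cyp4f40 had 0.49 as its log2 difference (limma adjusted p = 0.13, SE 0.11), or 0.31 with slide as a block. Cyp2e1, a P450 of ethanol and small molecules that also hydroxylates fatty acids, had 5.77, 5.94 and 5.87 in treated and 6.21, 6.19 and 6.27 in vehicle arrays, which gave -0.36 on the log2 scale (limma adjusted p = 0.12, SE 0.08). Its groups did not overlap, in contrast to Cyp4b1 of the same list at 0.53 (SE 0.23, limma adjusted p = 0.26).

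Of 7 other P450s with epoxygenase activity, 1 had an unadjusted p under 0.05 (treated higher), against 10.1% of all tested genes. The median log2 fold change of the 7 was 1.14. Cyp2c6v1 had -1.89, 0.09 and 2.22 in treated arrays and -2.59, -3.27 and -6.91 in vehicle arrays, 2 of which were well above background. In vehicle 3 its processed signal was 8.6, where the lowest signal well above background was 21.4. It passed the filter for testing only through the treated group, where its mean was higher. It was highest in treated 3 and lowest in vehicle 3, as the median of the hepatocyte markers was. Its log2 fold change was 4.40 (SE 1.46, limma adjusted p = 0.19). This was 3.96 with dim values set to the floor and 2.37 with slide as a block. Cyp2c7 had 1.14 with overlapping groups (SE 1.01), but 0.0059 with slide as a block, 0.25 without vehicle 3, 0.49 without treated 3 and 2.01 without vehicle 1. The brightest of 4 Cyp2s1 probes had 0.23 (SE 0.17), and the others had -0.05 to 0.24. This list shares Cyp2c11 with the hepatocyte markers. Unlike their median, Cyp2c11 was lowest in vehicle 1 (-1.74), and it had 1.39 in vehicle 3.

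The other epoxide hydrolases tested were Ephx1 and Ephx4. Ephx1, the microsomal enzyme, had 3.17, 3.87 and 4.25 in treated arrays and 3.29, 3.22 and 3.20 in vehicle arrays. Treated 1 lay below every vehicle array on this scale. On the unscaled signal treated 1 (9945) lay above every vehicle array (9909, 9681 and 9527), so this order depended on the scaling. The log2 fold change of Ephx1 was 0.53 (SE 0.26, limma adjusted p = 0.31), or -0.06 with slide as a block. Ephx4 had 0.40 (SE 0.16, limma adjusted p = 0.23), with groups that did not overlap, but 0.14 with slide as a block and 0.21 with normexp correction.

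Genes that release arachidonic acid from lipids or return it had a median of 0.01. Of 10 tested, 1 had an unadjusted p under 0.05 (treated higher), against 10.1% of all tested genes. That gene was the lysosomal phospholipase Pla2g15, with 0.28 (SE 0.08, limma adjusted p = 0.17). The calcium-independent phospholipase Pla2g6 had 0.26 (SE 0.11) by its brighter probe and 0.048 by the other. The acyltransferase Lpcat3 had 0.20 (SE 0.11) and the secreted phospholipase Pla2g2a 0.33 (SE 0.29), but with slide as a block these were 0.0066 and 0.016.

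In the cyclooxygenase branch, 2 of 11 genes had such a p with treated higher and 2 with treated lower, against 10.1% and 11.3% of all tested genes. Ptges, a prostaglandin E synthase, had 0.49, 0.70 and 0.77 in treated and 1.15, 1.15 and 0.99 in vehicle arrays, with no overlap and a difference of -0.44 (limma adjusted p = 0.13, SE 0.10). Thromboxane synthase (Tbxas1) had -0.37 (SE 0.11, limma adjusted p = 0.17), and the prostaglandin carrier Slco2a1 had 0.99 (SE 0.31, limma adjusted p = 0.18), or 0.46 with slide as a block.

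In the lipoxygenase branch 1 of 5 genes had an unadjusted p under 0.05 with treated higher, against 10.1% of all tested genes. This was Ggt1, which trims glutathione conjugates such as leukotrienes, with 0.59 (SE 0.19, limma adjusted p = 0.19). Alox5ap had 0.20 (SE 0.15), and Alox15 had 0.02 (SE 0.46). Of 5 tested eicosanoid receptors, 1 had such a p with treated lower, against 11.3% of all tested genes. This was the prostaglandin E receptor Ptger4, with -0.63 (SE 0.21, limma adjusted p = 0.20). That value was -0.22 with normexp correction and -0.37 with array weights. The 2 probes of the prostacyclin receptor Ptgir disagreed in size. The brighter gave -0.27 (SE 0.13, 0.0084 with slide as a block) with overlapping groups, and the dimmer gave -1.03 (limma adjusted p = 0.095, SE 0.17) with no overlap and an unadjusted p of 0.0010. The thromboxane receptor Tbxa2r had 0.14 (SE 0.10), or 0.065 with slide as a block.

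The receptor PPAR alpha, its partners and its usual targets outside the P450s had 12 of 28 genes with an unadjusted p under 0.05, all with treated higher, against 10.1% of all tested genes, and a median of 0.20. Ppara had 1.08, 1.24 and 1.08 in treated and 0.16, 0.11 and 0.03 in vehicle arrays. The groups were far apart relative to their spread, and the log2 fold change was 1.03 (SE 0.08, limma adjusted p = 0.057), or 0.98 with slide as a block. The lipid droplet protein gene Plin2 had 1.16 (limma adjusted p = 0.096, SE 0.20), or 0.78 with slide as a block. Among the 4 Cyp4a genes, which are P450 targets of the same receptor in rat liver, the brightest probes had log2 fold changes of 0.08 to 0.24, and 0 of 4 had an unadjusted p under 0.05. Those of Cyp4a2 and Cyp4a8 had processed signals above 300000. The other Cyp4a8 probes had 0.73 and 0.33, with unadjusted limma p of 0.00012 and 0.010 and no overlap. The other probes of Cyp4a2 and Cyp4a1 had 0.21 and -0.01, with unadjusted limma p of 0.13 and 0.93 and overlapping groups.

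**Figure D4:**
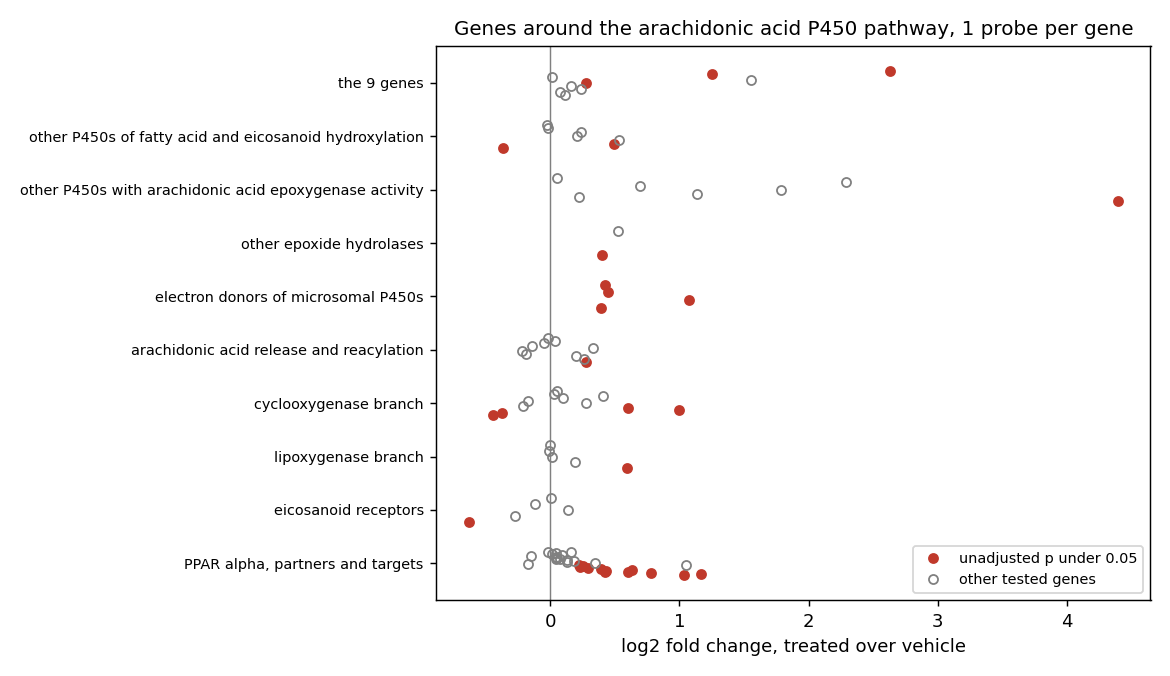
Log2 fold change of treated over vehicle for the brightest tested probe of each gene, by list, with filled circles for an unadjusted limma p under 0.05. All 4 electron donors and 12 of 28 PPAR alpha genes are filled and lie above 0, and Cyp2c6v1 is farthest to the right at 4.40. Cyp2c6v1 was not well above background in vehicle 3 and passed the filter only through the treated group.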

How the data were processed

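Renal cortex RNA of 6 rats was measured on 1-colour arrays. Per the file headers, the authors extracted linear spot intensity values using Agilent Feature Extraction 10.7.1.1; its processed signal has background subtracted. Version 10.7 is named in the submitters' processing notes. Groups and replicate numbers came from the labels. Nothing in the labels says how the 3 animals of a group relate, beyond their being separate animals.

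The deposited intensity values were scaled to each array's 75th percentile (61537 probes other than controls) and converted to log2. Probes with an outlier flag (11) were left out, and 0 probes were saturated. Testing required a probe to exceed background clearly on every array of 1 group or both, which 40643 probes did, for 12118 named genes. Probe accessions were matched without versions to RefSeq (GRCr8): 28206 probes had 1 symbol, 0 had several and 33331 had none. The brightest tested probe stood for a gene. Promoter windows were RefSeq's, on GRCr8.

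The comparison used lmFit and eBayes of limma 3.58.1 (R 4.3.3), two-sided. Adjusted p-values are Benjamini-Hochberg over all tested probes, and 95% intervals belong to single differences. The number of arrays limits the precision. The test was tested on simulated data with known changes. The member genes, the pathway and marker lists and the rules were chosen with earlier results of these data known. From each pathway list, the 3 genes with the smallest unadjusted p and the 1 with the largest difference are named, besides any called, except for 1 gene that is not reported here. For the 3 members with the widest range, the 3 genes with the most similar centred profile are named. Normexp correction took each spot's median signal where its mean had been planned. The series table deposited by the authors, also linear intensity values, served as an alternative, as did other scalings, filters, blocks, variance models and leaving out each array.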

Additional observations from a re-analysis of the deposited data

How the results depend on the processing

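Against 3 probes passing an adjusted p of 0.05, the count was 137 with normexp correction (97 higher in treated and 40 lower), 17 with median centring (12 higher and 5 lower), 1 with no filter, 1 with slide as a block, 156 with trend and robust variances and 6201 with array weights. It was 0 with the filter on all arrays, with the floor on dim values, within slide 1 and with replicate number as a block (the replicate block), where 8001, 8440, 5679 and 7240 probes had an unadjusted limma p under 0.05. It ranged from 0 to 4307 when each array was left out, with 4307 without treated 1. Of the 8377 probes with an unadjusted p under 0.05, 3400 were higher in treated and 4977 lower. With array weights there were 14349, and leaving out each array gave 4954 to 12985.

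The count of members with an unadjusted p under 0.05 was 1 with slide as a block and 2 with the replicate block, and ranged from 0 to 4 when each array was left out. Their median log2 fold change of 0.24 was 0.010 with slide as a block and within slide 1, and 0.24 with the replicate block. Same-numbered arrays of the groups did not deviate together: the correlations over probes of their deviations from the group means were -0.21, 0.014 and -0.16 for numbers 1, 2 and 3, so the numbers were not taken as pairs.
Some directions turned, among them those of Ephx1 (0.53), Ptgir (-0.27) and Cyp4a3 (0.24). With slide as a block, and equally within slide 1, the log2 fold change was -0.016 for Cyp4a1, -0.10 and -0.039 for the brighter and dimmer Cyp4a2 probes, -0.063 for the brightest Cyp4a8 probe, -0.18 for Cyp2c23, -0.063 for Ephx1 and 0.0084 for Ptgir. With slide as a random block it was -0.0029 for Cyp4a2 and -0.071 for Cyp2c23, which was -0.074 with quantile normalization. Cyp4a1 was -0.032 with normexp correction and -0.011 by its dimmer probe, which in turn was 0.026 with median centring and 0.049 with array weights. When each array was left out, the lowest and highest values were -0.048 and 0.41 for Cyp4a3, -0.037 and 0.11 for Cyp2c23, -0.10 and 0.068 for the dimmer Cyp4a1 probe and -0.32 and 0.56 for Alox15.
Ephx2, Cyp2j4, Cyp4f1, Cyp4f4 and the 2 dimmer Cyp4a8 probes had log2 fold changes above 0 under every alternative run. The causes of the changes above were not tested. Depth is not defined for these arrays, and dim probes such as that of Cyp4f4 are limited by their signal over background.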

Other observations

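The neighbours of the 9 genes on the chromosome (RefSeq, GRCr8, order only) were read beside them. Around Ephx2 on chromosome 15, log2 fold changes of treated over vehicle were 0.96 for Scara3, -0.65 for Clu (clusterin, a secreted chaperone), 0.45 for Gulo (which makes the last step of vitamin C synthesis in rats), 0.29 for Chrna2, -0.01 for Ptk2b and -0.44 for Trim35. Ephx2 itself had 2.63. The spreads of these 6 neighbours over the 3 vehicle arrays were 0.12 to 1.14 on the log2 scale, against 3.51 for Ephx2. Beside the Cyp4a genes on chromosome 5, Pdzk1ip1 had -0.026, Tal1 0.17 and Cmpk1 0.088 on one side, and Cyp4b1 had 0.53, Efcab14 -0.036 and Tex38 0.040 on the other.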
